A study of Mus musculus with 6 samples.

Results

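The Rab genes encode small GTPases that direct membrane traffic, and their transcripts were followed here in MC/9, a mouse mast cell line. A gene counted as a member when its symbol in the deposited count table was Rab followed by a number and at most a short suffix, such as Rab27a or Rab5c. This gave 59 of the 49568 genes of the table, all protein-coding in GENCODE M21, and 49 of the 59 were high enough to be tested. The samples were 3 libraries of mast cells given rPTH (10 nM, 24 h) and 3 control libraries, whose label names no treatment. Osteoblasts of the mouse line 7F2 had been seeded a day before the mast cells were added for co-culture, and the mast cells were collected afterwards; rPTH was given to the co-culture, so it reached both lines. The labels do not spell out rPTH and leave unstated whether osteoblasts were present in the control cultures, and both lines are established lines, so replicates are not separate animals. Separate cultures are not mentioned for the replicates; the p-values therefore measure only the spread between these libraries, which may be technical.

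A Rab protein switches between a GDP-bound form, kept soluble by a dissociation inhibitor, and a GTP-bound form that sits on 1 kind of membrane and recruits effectors there. Exchange factors load GTP, GTPase-activating proteins end the cycle, and an escort protein presents new Rabs for the lipid modification that anchors them. Mast cells store histamine, proteases and heparin in granules related to lysosomes. In rodent mast cells Rab27a, Rab27b, Rab37, Rab3d and Rab44 have been placed on these granules or in their release, Rab5 in granule fusion during maturation, and Rab12 in the movement of granules along microtubules.

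Total counts ran from 30623648 to 33577977 in the rPTH libraries and from 22282095 to 24993606 in the controls, so a count of 0 allows up to 0.098 CPM (counts scaled to library size) in the rPTH libraries and up to 0.135 CPM in the controls, for counting error only. Levels below are CPM scaled by TMM factors, which correct for library composition; this factor was 0.81 for control 1 and between 1.03 and 1.06 elsewhere. Control 1 stood apart from the other controls: its counts differed from those of control 2 and control 3 with a chi-square per degree of freedom of 239.76 and 281.3, against 36.13 between control 2 and control 3. Fcer1a, the IgE-binding chain of the mast cell receptor, had 1110, 1640 and 1360 CPM with rPTH and 2070, 1330 and 1420 CPM in controls. The summed level of 28 osteoblast and stromal markers was 5090, 3270 and 3400 CPM in rPTH 1, 2 and 3, and 2840, 2540 and 2510 CPM in control 1, 2 and 3. Of these 28 markers 24 were tested, and 15 of the 24 had all rPTH libraries above all controls, against 8.35% of all tested genes. The late osteoblast markers Bglap and Ibsp stayed under 0.25 CPM in every library. Col1a1, also on this list, had 298, 160 and 193 CPM with rPTH and 168, 159 and 138 CPM in controls. Osteoblast and stromal transcripts were thus present in all controls as well, and which cells they came from was not tested. The summed level of 12 mast cell markers was 5740, 7490 and 7060 CPM with rPTH and 9490, 7140 and 7160 CPM in controls. Of these 12 markers 11 were tested. All rPTH libraries lay below all controls for 2 of them (Tpsb2 and Gata2), against 8.46% of all tested genes, and above for 0, against 8.35%. Not every marker followed the sum. In control 1, 2 and 3 Kit had 279, 606 and 601 CPM and Mitf 52.2, 89 and 91.4 CPM, both lowest in control 1. In such bulk samples fewer cells of a type and less RNA per cell cannot be told apart.

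No Rab gene passed the test between rPTH and control. With edgeR's quasi-likelihood test and Benjamini-Hochberg adjustment over all 16696 tested genes, 0 of 49 Rab genes had an adjusted p under 0.05, as did 0% of all tested genes, and the adjusted p of the Rab genes ran from 0.619 to 0.979. At an unadjusted p under 0.05 there were 2 Rab genes on the higher side, Rab5a and Rab39b, against 1.98% of all tested genes, and 0 on the lower side, against 5.89% of all tested genes. Of the 12292 tested protein-coding genes, the type of all Rab genes, 323 were on the higher side and 123 on the lower side. DESeq2 also called 0 Rab genes, against 0.049% of all genes with an adjusted p. It had 5 of 59 Rab genes (8.47%) at an unadjusted p under 0.05, all on the higher side, where 1.7% of all 38205 genes with a p lay. Many of these 38205 genes were too low to be tested with edgeR, so this share is not a like base for the Rab genes. Limma-voom called 0 Rab genes and 0 genes in all, with 1 Rab gene of 49 (2.04%) at an unadjusted p under 0.05 on the higher side, against 2.11% of all genes. The authors' deposited table lists 0 Rab genes at an adjusted p under 0.05, against 11 genes in all (0.0707% of those with an adjusted p), and gives no adjusted p for 12 Rab genes. The lowest adjusted p of a Rab gene in the authors' deposited table is 0.288 (Rab39b), and 5 Rab genes have an unadjusted p under 0.05 there, all on the higher side. On that side lie 1.71% of its 38144 genes with a p, again with many low genes among them.

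Fold changes were small. The log2 fold change, rPTH minus control, lay between -0.52 and 0.88 over the 49 tested Rab genes and was within 0.5 of 0 for 42 of them. It was above 0 for 23 of 49 (46.9%), against 41.5% of all tested genes and 48.5% of tested protein-coding genes. With DESeq2's size factors in place of TMM it was above 0 for 28 of 49, and without control 1 for 30 of the 50 then tested. Without control 1 there were 6 Rab genes (Rab2a, Rab5a, Rab7b, Rab18, Rab31 and Rab32) at an unadjusted p under 0.05 on the higher side (12% of 50, against 4.46% of all genes in that fit), 0 on the lower side (against 7.95%) and 0 past the adjusted threshold. Without control 3 there were 2 on the higher side (Rab5a and Rab39b) and 1 on the lower side (Rab13), against 3.79% and 5.7% of all genes. Without rPTH 3 there was 1 on the higher side (Rab39b, against 1.46% of all genes), and without rPTH 1, rPTH 2 or control 2 there were 0 on either side (against 0.261% to 1.27% of all genes on the higher and 1.35% to 10.8% on the lower side). The median was -0.04, beside -0.09 over all tested genes and -0.01 over protein-coding genes. The 3 rPTH libraries all lay above the 3 controls for 7 Rab genes (14.3%: Rab5a, Rab14, Rab18, Rab21, Rab23, Rab31 and Rab39b), against 8.35% of all tested genes and 10.7% of protein-coding genes. All 3 lay below the controls for 2 Rab genes (4.08%: Rab4a and Rab19), against 8.46% of all tested genes and 5.78% of protein-coding genes. Fold changes of the family thus lay on both sides of 0.

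**Figure D1:**
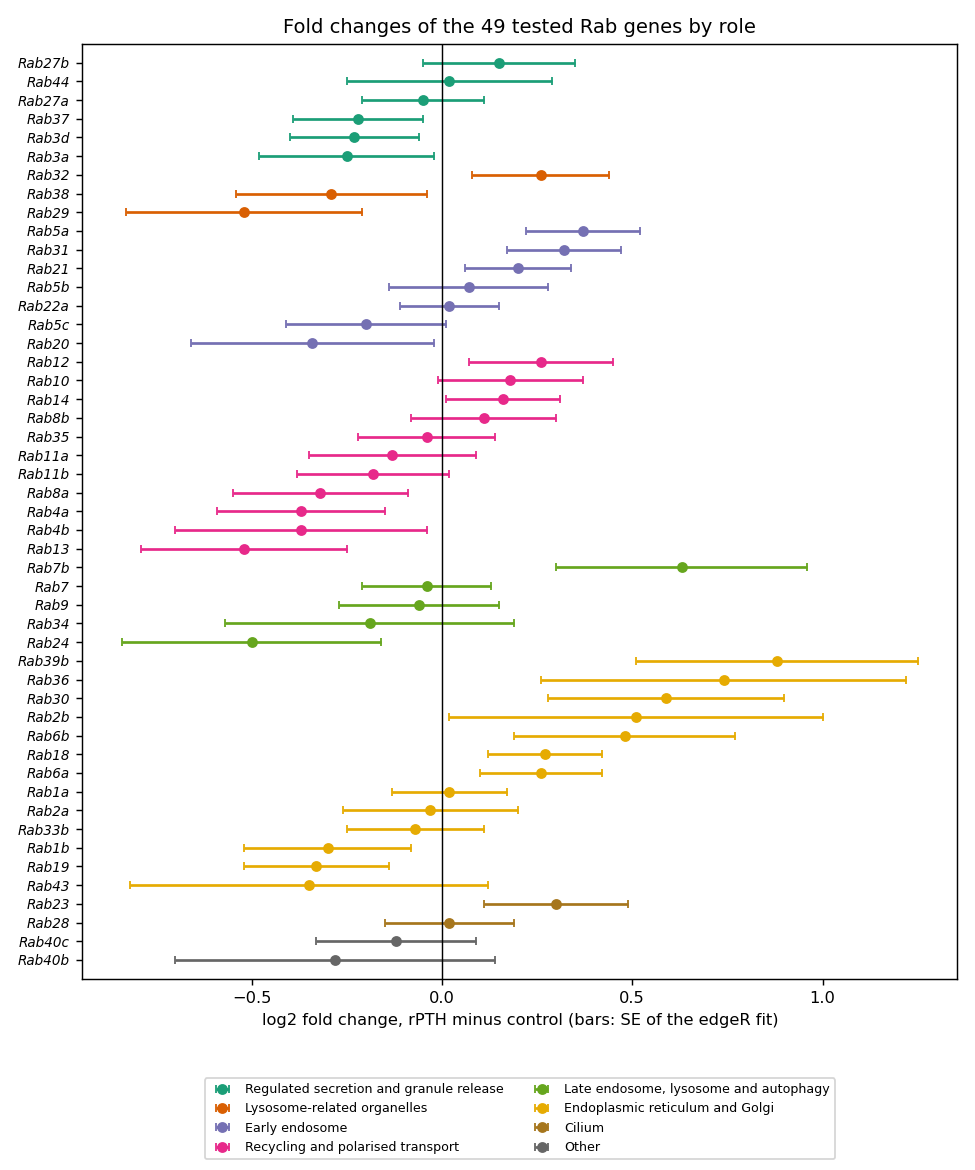
Log2 fold change (rPTH minus control, x axis) of each of the 49 tested Rab genes, ordered and coloured by role, with the SE of the edgeR fit as bars. Values run from -0.52 (Rab13 and Rab29) to 0.88 (Rab39b), each role with several genes holds genes on both sides of 0 except the cilium and the remaining genes, and none passed the adjusted threshold.

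Length-scaled levels showed which Rab transcripts were abundant in these libraries. Osteoblast and stromal transcripts were present too, so a level cannot be assigned to the mast cells alone. Per kilobase of exon, Rab7, which drives late endosomes and lysosomes to fuse, had 95.5 ± 3.82 CPM per kb with rPTH and 97.9 ± 12.6 CPM per kb in controls (SD, n = 3 each). Rab5c, one of the early endosome Rabs, had 93.4 ± 4.96 CPM per kb with rPTH and 108 ± 26.7 CPM per kb in controls, so that these neighbours in the order did not differ beyond their spread. The Rabs that carry cargo between the endoplasmic reticulum and the Golgi came next. Rab1b had 69.2 ± 4.09 CPM per kb with rPTH and 85 ± 22.3 CPM per kb in controls, and Rab1a had 58.7 ± 2.39 CPM per kb with rPTH and 57.7 ± 1.4 CPM per kb in controls. Rab2a had 54.4 ± 3.89 CPM per kb with rPTH and 55.5 ± 16.1 CPM per kb in controls, and the SD of Rab2a in controls was wider than its distance from Rab1a. The sixth place by the mean over 6 libraries was held by Rab38, a Rab of lysosome-related organelles, with 31.2 ± 5.32 CPM per kb in rPTH libraries and 38.1 ± 11.2 CPM per kb in controls. Rab10, next in the order, had 34.1 ± 1.26 CPM per kb with rPTH, above Rab38, and 30.1 ± 5.92 CPM per kb in controls. The place of Rab38 leaned on control 1, its highest library. Union exon length was used, so genes with long exonic sequence, such as Rab14 and Rab27b, rank lower per kb than in CPM.

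**Figure D2:**
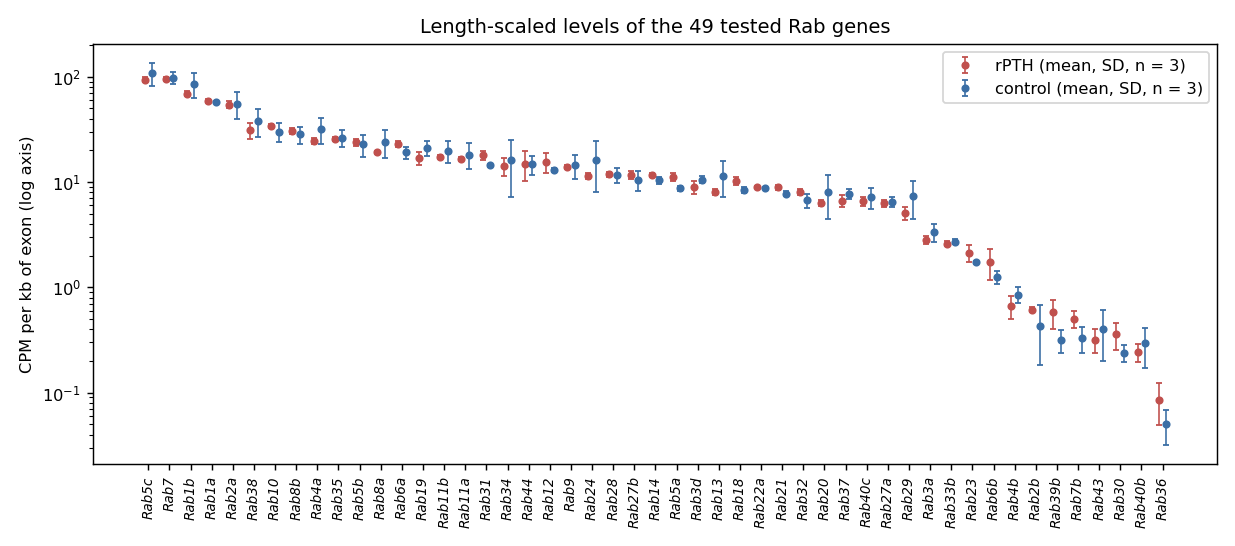
CPM per kb of exon (y axis, log scale) of the 49 tested Rab genes in order of their mean over 6 libraries; points are means and bars SD of 3 rPTH libraries (left of each pair) and 3 controls (right). Rab5c and Rab7 lead at 93.4 to 108 CPM per kb, and Rab36 is lowest at 0.0859 with rPTH and 0.0502 in controls.

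At the other end, 10 Rab genes were too low to test, with 1 to 43 counts summed over 6 libraries. Among them were 3 genes of regulated secretion. Rab3b had 10, 11 and 5 counts with rPTH and 5, 6 and 6 in controls, Rab3c had 0, 1 and 1 with rPTH and 0, 1 and 5 in controls, and Rab26, known from exocrine granules, had 4, 0 and 2 with rPTH and 4, 8 and 3 in controls. The epithelial Rabs Rab17 and Rab25 summed to 5 and 33 counts. Rab15 had 12, 9 and 8 counts with rPTH and 2, 1 and 5 in controls. Its groups did not overlap, but no count exceeded 12 in a library. In CPM the groups of Rab26 did not overlap either, in the other direction, with 0.127, 0 and 0.0561 CPM with rPTH and 0.203, 0.31 and 0.13 CPM in controls. How often groups fail to overlap among genes this low was not counted. The remaining genes too low to test were Rab9b, Rab33a, Rab39 and Rab42.

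The first role group was regulated secretion and granule release, the Rabs closest to the mast cell granule. Of its 9 members 6 were tested, 2 had a fold change above 0 and 4 below, and the groups overlapped for all 6. Their median log2 fold change was -0.13. Rab27b, which with Rab27a docks granules at the plasma membrane, had the highest mean CPM of the group, with 112, 132 and 129 CPM with rPTH and 83.9, 127 and 125 CPM in controls. Control 1 was the lowest library and the other 5 lay within 112 to 132 CPM. The log2 fold change was 0.15 ± 0.20 (SE; edgeR adjusted p = 0.76); it was -0.03 without control 1 and -0.36 after each library's length and GC trend was removed.

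Rab27a had 22.3, 25 and 25.7 CPM with rPTH and 22.2, 26.7 and 26.5 CPM in controls. Both groups covered the same range, with a log2 fold change of -0.05 ± 0.16 (SE; edgeR adjusted p = 0.906). Rab37, which lies on mast cell granules and was first cloned from mast cells, had 29.9, 37.8 and 38.4 CPM with rPTH and 45.3, 41.1 and 36.9 CPM in controls. Rab3d, another granule Rab, had 31.8, 41.8 and 39.3 CPM with rPTH and 47.2, 45.1 and 40.5 CPM in controls. In both genes rPTH 1 was the lowest library and control 1 the highest, as it was for the summed mast cell markers. Their log2 fold changes were -0.22 ± 0.17 for Rab37 and -0.23 ± 0.17 for Rab3d (SE; edgeR adjusted p = 0.653 and 0.635). Without rPTH 1 they were -0.11 for Rab37 and -0.13 for Rab3d. With the length and GC trend removed they were -0.11 for Rab37 and -0.22 for Rab3d.

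Rab3a, the synaptic vesicle Rab, was lower in level, with 5.71, 6.67 and 6.42 CPM with rPTH and 9.07, 6.58 and 6.66 CPM in controls. Its log2 fold change was -0.25 ± 0.23 (SE; edgeR adjusted p = 0.68), and -0.09 without control 1, which alone stood above the other 5 libraries. Rab44, a large Rab with calcium-binding EF hands, had the widest spread among rPTH libraries, with 69.4, 55.6 and 102 CPM with rPTH and 58.7, 88.2 and 77.2 CPM in controls. The highest and the lowest library were both rPTH libraries, and the log2 fold change of 0.02 ± 0.27 (SE; edgeR adjusted p = 0.979) turned to -0.26 without rPTH 3.

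**Figure D3:**
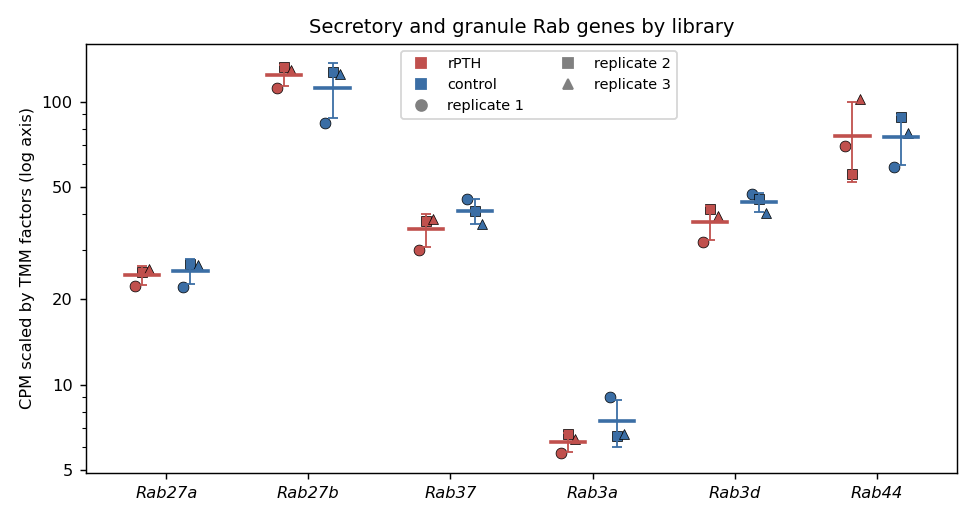
CPM scaled by TMM factors (y axis, log scale) of the 6 tested secretory and granule Rab genes in each library; rPTH is left of control for each gene, marker shape gives the replicate, and lines with bars give mean and SD (n = 3). The groups overlap for each gene, with Rab27b at 83.9 to 132 CPM, Rab44 at 55.6 to 102 CPM and Rab3a at 5.71 to 9.07 CPM.

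Rabs of lysosome-related organelles, which deliver cargo to melanosomes and similar compartments, did not share a direction. Rab32 had 20, 18.8 and 17.7 CPM with rPTH and 18.3, 15.2 and 13.5 CPM in controls (log2 fold change 0.26 ± 0.18, SE; edgeR adjusted p = 0.631). Its paralogue Rab38 had 40.5, 57.3 and 49.6 CPM with rPTH and 80.5, 49.3 and 50.4 CPM in controls (log2 fold change -0.29 ± 0.25, SE; edgeR adjusted p = 0.665). For Rab38 the other 5 libraries lay between 40.5 and 57.3 CPM, and the fold change was -0.03 without control 1. Rab29, which recruits the kinase LRRK2 to membranes, had 6.28, 8.18 and 8.08 CPM with rPTH and 15.7, 8.79 and 7.96 CPM in controls. Its log2 fold change of -0.52 ± 0.31 (SE; edgeR adjusted p = 0.628) was -0.17 without control 1.

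The early endosome group held the Rab gene of smallest p. All 7 members were tested, 5 had a fold change above 0 and 2 below, and for 3 of them, Rab5a, Rab21 and Rab31, all rPTH libraries lay above all controls, as they did for 8.35% of all tested genes and 10.7% of protein-coding genes. Rab5a, which tethers early endosomes through EEA1 and other effectors, had 64.7, 58.5 and 54 CPM with rPTH and 42.7, 46.7 and 48 CPM in controls. The lowest rPTH library lay above the highest control, and the log2 fold change was 0.37 ± 0.15 (SE; edgeR adjusted p = 0.619). Over 14 alternative settings the fold change of Rab5a stayed between 0.30 and 0.49; it was 0.31 without control 1, 0.30 without rPTH 1 and 0.35 with the length and GC trend removed.

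Rab31, a Rab5 relative between the trans-Golgi network and endosomes, had 76.2, 67 and 62.8 CPM with rPTH and 57.2, 54.9 and 52.8 CPM in controls, a log2 fold change of 0.32 ± 0.15 (SE; edgeR adjusted p = 0.619). Over the same 14 settings it ran from 0.24 to 0.45. Rab21, which handles integrin uptake, had 47.1, 44.6 and 42.8 CPM with rPTH and 38.3, 41.3 and 37.2 CPM in controls. Its log2 fold change was 0.20 ± 0.14 (SE; edgeR adjusted p = 0.635), and -0.06 with the length and GC trend removed. In Rab5a, Rab31 and Rab21 rPTH 1 was the highest library, the one with the highest sum of stromal markers (5090 CPM); the part of those cells' RNA in the result was not tested. Rab5b had 92.7, 106 and 102 CPM with rPTH and 69.7, 109 and 107 CPM in controls, and Rab5c had 195, 216 and 203 CPM with rPTH and 303, 211 and 194 CPM in controls. Control 1 was the lowest library for Rab5b and the highest for Rab5c, so the 2 paralogues differed in opposite ways in that library.

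The promoters of the Rab genes with the smallest p on the higher side are shown, together with that of Rab27a as a granule Rab, because they are the regulatory sequence nearest to these transcripts. RefSeq windows on GRCm38.p6, from 250 bases before to 50 bases after a gene's start, were held for 48 of 59 Rab genes, 60 windows in all, and each is written 5′ to 3′ in the direction of the gene. Capitals mark matches to CACGTG (the E-box that MITF and its relatives bind), CATGTG (the core of their M-box) or TGACGTCA (the full cyclic AMP response element), on either strand. Rab5a lies at chr17:53478984-53479283 on the plus strand, Rab31 at chr17:65772703-65773002 on the minus strand, Rab39b at chrX:75578182-75578481 on the minus strand, and the Rab27a window shown at chr9:73063898-73064197 on the plus strand. It is one of a pair for Rab27a and was chosen because it holds a match; the other, at chr9:73044560-73044859 by the annotated gene start, holds none of the 3 motifs.
Rab5a promoter: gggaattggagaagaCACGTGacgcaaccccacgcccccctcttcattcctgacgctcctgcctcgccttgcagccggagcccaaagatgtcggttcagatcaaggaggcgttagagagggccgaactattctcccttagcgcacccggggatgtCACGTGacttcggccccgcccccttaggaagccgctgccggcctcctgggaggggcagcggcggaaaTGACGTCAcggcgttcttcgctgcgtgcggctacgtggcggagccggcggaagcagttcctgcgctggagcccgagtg
Rab31 promoter: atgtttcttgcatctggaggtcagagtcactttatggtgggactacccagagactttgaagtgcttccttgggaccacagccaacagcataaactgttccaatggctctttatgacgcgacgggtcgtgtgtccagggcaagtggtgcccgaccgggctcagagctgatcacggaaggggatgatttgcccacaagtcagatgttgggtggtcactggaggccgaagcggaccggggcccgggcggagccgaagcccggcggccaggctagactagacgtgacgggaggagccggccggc
Rab39b promoter: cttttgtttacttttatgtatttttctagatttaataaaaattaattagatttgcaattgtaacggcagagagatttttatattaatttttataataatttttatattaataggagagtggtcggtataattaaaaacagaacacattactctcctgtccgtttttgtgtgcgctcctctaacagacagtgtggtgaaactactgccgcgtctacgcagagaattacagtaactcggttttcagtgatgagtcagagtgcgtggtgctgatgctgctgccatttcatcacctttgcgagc
Rab27a promoter: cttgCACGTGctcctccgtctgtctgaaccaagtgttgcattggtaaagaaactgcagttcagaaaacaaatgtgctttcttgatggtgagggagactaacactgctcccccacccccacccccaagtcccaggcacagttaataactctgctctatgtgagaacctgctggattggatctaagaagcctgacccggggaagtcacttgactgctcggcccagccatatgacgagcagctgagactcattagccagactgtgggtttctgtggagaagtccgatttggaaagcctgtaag

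The Rab5a window held CACGTG at bases 16 and 156 and TGACGTCA at base 223, counted from 1 at its 5′ end. TGACGTCA was found in 2 of 60 Rab windows (3.33%, those of Rab5a and Rab25), against 1.79% of all 32851 windows, and CACGTG in 6 of 60 (10%), against 7.15%. CATGTG was found in 6 of 60 Rab windows (10%), against 14.2% of all windows. The windows of Rab31 and Rab39b held none of the 3 motifs, and the Rab39b window had a GC content of 35.7%, against a median of 61.2% over Rab windows. A match describes letters in a window and is no evidence of binding in these cells.

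In the recycling and polarised transport group 11 of 14 members were tested, 4 with a fold change above 0 and 7 below. Rab4a, of fast recycling from early endosomes, had 40.3, 43.4 and 45.7 CPM with rPTH and 73.6, 48.2 and 46 CPM in controls. Its groups did not overlap, but rPTH 3 and control 3 were nearly level, and the log2 fold change of -0.37 ± 0.22 (SE; edgeR adjusted p = 0.628) was -0.14 without control 1. Rab13, known from junctions and surface delivery in epithelia, had 17.1, 19.5 and 18.6 CPM with rPTH and 37.6, 22.3 and 19.5 CPM in controls (log2 fold change -0.52 ± 0.27, SE; edgeR adjusted p = 0.628; -0.19 without control 1). Rab11a, of recycling endosomes, had 49.6, 51.9 and 47.6 CPM with rPTH and 71.8, 43.9 and 47.8 CPM in controls, and only control 1 lay outside 43.9 to 51.9 CPM.

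Rab12, which takes mast cell granules inward along microtubules, had 59, 42.9 and 39.8 CPM with rPTH and 41.8, 38.1 and 38.6 CPM in controls. One library, rPTH 1, lay apart and the other 5 were within 38.1 to 42.9 CPM; the log2 fold change was 0.26 ± 0.19 (SE; edgeR adjusted p = 0.642) and ran from 0.07 to 0.37 when single libraries were left out. Rab14, between the Golgi and endosomes, had 165, 154 and 155 CPM with rPTH and 129, 146 and 151 CPM in controls (log2 fold change 0.16 ± 0.15, SE; edgeR adjusted p = 0.689). Its groups did not overlap, but the fold change was -0.13 after the length and GC trend was removed and 0.08 without control 1. The remaining tested genes of the group, Rab4b, Rab8a, Rab8b, Rab10, Rab11b and Rab35, had log2 fold changes from -0.37 to 0.18.

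Among the late endosome, lysosome and autophagy Rabs 5 of 6 were tested, 1 with a fold change above 0 and 4 below. Rab7 had 259, 249 and 239 CPM with rPTH and 293, 240 and 234 CPM in controls, a log2 fold change of -0.04 ± 0.17 (SE; edgeR adjusted p = 0.929). Rab7b, which returns cargo from late endosomes to the trans-Golgi network, was far lower, with 2.76, 1.88 and 2.36 CPM with rPTH and 1.98, 1.39 and 1.17 CPM in controls. Its log2 fold change was 0.63 ± 0.33 (SE; edgeR adjusted p = 0.628), from 27 to 87 counts per library, and control 1 lay above rPTH 2. Rab24, linked to autophagy, had 21.9, 22.6 and 25 CPM with rPTH and 52.1, 24.3 and 22 CPM in controls. Of its exonic bases 62.4% lie under exons of Prelid1 on the other strand; Prelid1 had 7106, 7959 and 7621 counts with rPTH and 9812, 6221 and 4989 in controls, and since no source used here states how strand was treated, reads of the pair cannot be told apart. Rab34, which positions lysosomes, had 41, 31.2 and 28.7 CPM with rPTH and 62.6, 27.6 and 24.7 CPM in controls. Without control 1 the log2 fold change was -0.01 for Rab24, in place of -0.50, and 0.35 for Rab34, in place of -0.19.

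In the endoplasmic reticulum and Golgi group 13 of 15 members were tested, 8 with a fold change above 0 and 5 below, with a median log2 fold change of 0.26. Among its best expressed members, Rab1a had 223, 232 and 214 CPM with rPTH and 225, 216 and 217 CPM in controls, and Rab2a had 124, 117 and 107 CPM with rPTH and 158, 97.3 and 99.6 CPM in controls. Without control 1 the log2 fold change of Rab2a was 0.22 instead of -0.03. Rab1b had 147, 166 and 158 CPM with rPTH and 247, 186 and 146 CPM in controls (log2 fold change -0.30 ± 0.22, SE; edgeR adjusted p = 0.64; -0.09 without control 1 and -0.05 with the length and GC trend removed). Rab18, of the endoplasmic reticulum and lipid droplets, had 69.3, 76.1 and 63.6 CPM with rPTH and 56.9, 54.7 and 61.9 CPM in controls. Its groups did not overlap, and the log2 fold change was 0.27 ± 0.15 (SE; edgeR adjusted p = 0.628) but -0.25 after the length and GC trend was removed. Rab19 had 22.3, 28.8 and 28.1 CPM with rPTH and 39.8, 30.1 and 29.6 CPM in controls, a log2 fold change of -0.33 ± 0.19 (SE; edgeR adjusted p = 0.628). It was -0.19 without control 1, -0.22 without rPTH 1 and -0.09 with the length and GC trend removed.

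The upper end of this group was made of Rabs known mainly from neurons or the Golgi, all at low levels. Rab39b, whose loss in humans causes an X-linked intellectual disability, had 2.6, 1.94 and 1.4 CPM with rPTH and 1.06, 0.813 and 1.34 CPM in controls, from 21 to 82 counts per library. All rPTH libraries lay above all controls, though rPTH 3 and control 3 were close, and the log2 fold change was 0.88 ± 0.37 (SE; edgeR adjusted p = 0.619). It was 0.64 without rPTH 1 and 0.86 without control 1. Rab6b, the neuronal partner of the Golgi Rab Rab6a, had 12, 7.74 and 6.62 CPM with rPTH and 7.04, 5.27 and 6.62 CPM in controls. Rab30 had 4.6, 3.1 and 2.69 CPM with rPTH and 2.74, 1.94 and 2.25 CPM in controls; its log2 fold change of 0.59 was 0.33 without rPTH 1 and -0.17 with the length and GC trend removed. In Rab39b, Rab6b, Rab30 and Rab36 rPTH 1 had at least 1.5 times the mean of rPTH 2 and rPTH 3, as the only 4 of the 49 tested Rab genes, and it was also the library with the most stromal marker transcripts; their part in these levels was not tested.

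The cilium Rabs were Rab23, a brake on Hedgehog signalling, and Rab28. Rab23 had 21.5, 15.7 and 15.8 CPM with rPTH and 14.3, 14.8 and 13.8 CPM in controls, with rPTH 1 again the highest library (log2 fold change 0.30 ± 0.19, SE; edgeR adjusted p = 0.629; 0.14 without rPTH 1). Rab28 had 54.4, 55.1 and 50.4 CPM with rPTH and 62.3, 48.5 and 46.8 CPM in controls. The remaining genes, Rab40b and Rab40c, which join ubiquitin ligases, had log2 fold changes of -0.28 and -0.12.

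Paralogues of a subfamily carry out related steps, and the share that each takes of the subfamily's CPM per kb does not depend on library scaling. Rab5a made up 9.98%, 8.23% and 8.06% of the Rab5 level with rPTH and 4.97%, 6.76% and 7.4% in controls, so the groups did not overlap. Rab5c made up 72.7 ± 0.536% with rPTH and 76.7 ± 7.09% in controls (SD, n = 3 each). Rab27b made up 64.7%, 65.7% and 64.5% of the Rab27 level with rPTH and 57.9%, 63.3% and 63.2% in controls; the groups did not overlap, though rPTH 3 and control 2 were close. For both shares control 1 was the lowest library by the widest margin. Shares can still depend on a library's length trend, as the longest transcripts of Rab27b and Rab27a have 6891 and 3168 bases. With the length and GC trend removed, the log2 fold changes were -0.36 for Rab27b and -0.05 for Rab27a. For Rab5a, Rab5b and Rab5c they were then 0.35, 0.09 and -0.01. How often shares of other gene groups fail to overlap was not counted.

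In other subfamilies 1 member held most of the level or the shares were closer. Rab2a, Rab4a, Rab6a and Rab7 made up 98.9%, 97.4%, 93% and 99.5% of their subfamilies with rPTH and 99.1%, 97.2%, 93.8% and 99.7% in controls; of these, the Rab7 share did not overlap between the groups. Rab3d made up 76 ± 1.15% of the Rab3 level with rPTH and 76 ± 2.52% in controls, and Rab11a 48.9 ± 0.864% of the Rab11 level with rPTH and 47.9 ± 1.66% in controls. Rab8a had 40.6%, 37.5% and 37.5% of the Rab8 level with rPTH and 58.9%, 41% and 36.5% in controls, with control 1 the sole library in which Rab8a outweighed Rab8b.

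**Figure D4:**
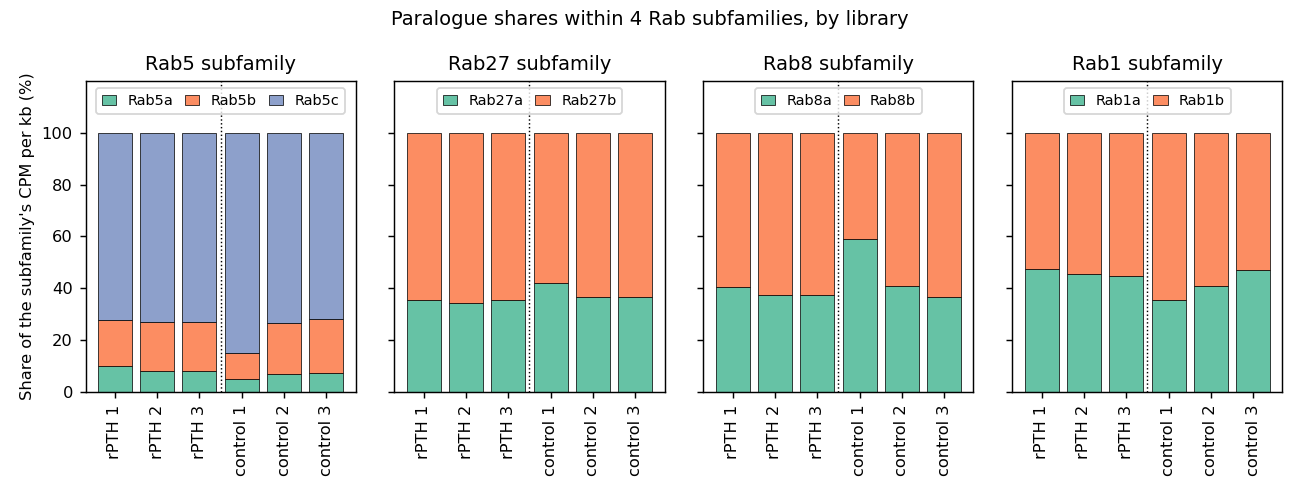
Share (%) of each paralogue in the CPM per kb of its subfamily, 1 bar per library, rPTH libraries left of the dotted line and controls right. Control 1 differs from the other 5 bars in each panel, with 84.8% Rab5c, 42.1% Rab27a, 58.9% Rab8a and 64.7% Rab1b.

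Many Rab genes had their extreme value in control 1. That library was the highest of 6 libraries for 22 of the 49 tested Rab genes and the lowest for 11. For comparison, rPTH 1 was the highest for 15 and the lowest for 11, and control 3 was the highest for 2 and the lowest for 13. Control 1 lay at least 1.5 times above the mean of control 2 and control 3 for 12 genes, among them Rab34, Rab24, Rab20, Rab29 and Rab13, and at least 1.5 times below it for 6 genes, Rab2b, Rab43, Rab36, Rab40b, Rab5b and Rab27b. In rPTH 1 these counts were 4 and 0 against rPTH 2 and rPTH 3. None of these counts was made over all tested genes. Control 1 stood apart over all genes as well, with a chi-square per degree of freedom of 239.76 and 281.3 against the other controls. The counts therefore describe the libraries and do not show a trait of Rab genes. Across the 49 genes the log2 ratio of control 1 to the other controls had a Spearman rho of -0.52 with the length of the longest transcript. The log2 fold change between groups had a rho of 0.62 with that length and -0.56 with GC content, beside 0.58 and -0.40 over 12292 protein-coding genes. These are correlations across genes of the same 6 libraries, given as descriptions; genes are not independent replicates, and the fold change includes control 1.

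**Figure D5:**
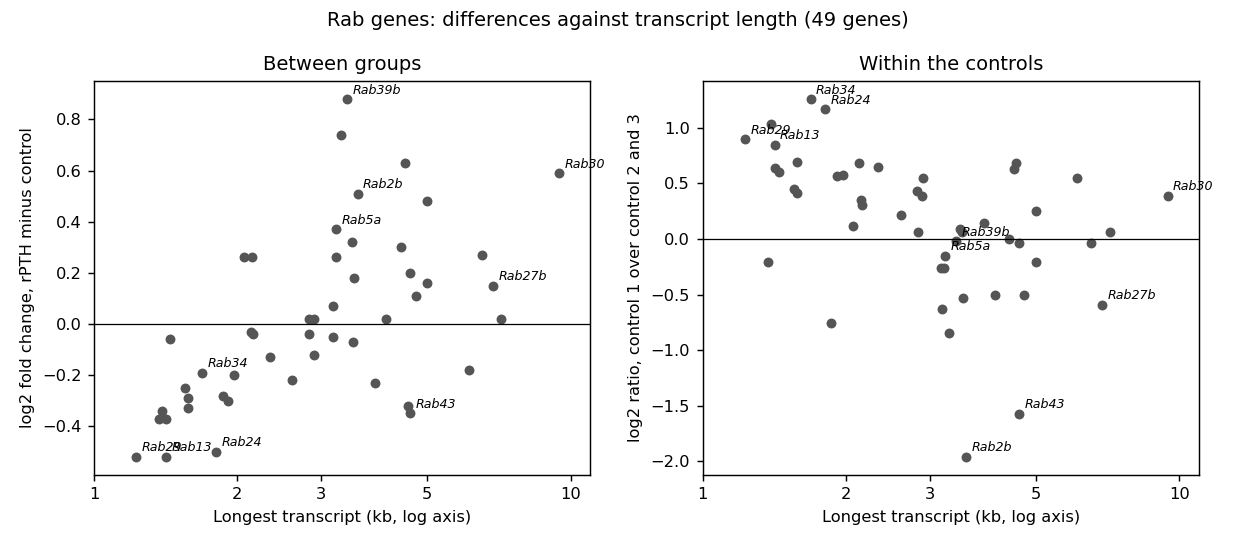
Length of the longest transcript (x axis, kb, log scale) against the log2 fold change between rPTH and control (left) and against the log2 ratio of control 1 to the mean of control 2 and 3 (right), 1 point per tested Rab gene (49). Genes with short transcripts such as Rab29, Rab13 and Rab24 lie low on the left (-0.52 to -0.50) and high on the right (0.85 to 1.17).

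The scaling decided how the family as a whole compared. Summed over all 59 Rab genes, the level was 2908, 2967 and 2859 CPM with rPTH and 3269, 2855 and 2769 CPM in controls after TMM scaling, and the groups overlapped. In plain CPM the sums were 2991, 3105 and 3037 with rPTH and 2646, 2950 and 2873 in controls, so that all rPTH libraries lay above all controls. Control 1 was thus the highest library under one scaling and the lowest under the other. The same held for the tested protein-coding genes as a whole, so it was not particular to the Rab genes. Their sums in plain CPM were 885200, 885700 and 884800 with rPTH and 841300, 883700 and 854600 in controls. After TMM scaling they were 860400, 846300 and 833100 with rPTH and 1040000, 855300 and 823600 in controls.

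The machinery that runs the Rab cycle was read from lists of prenylation and recycling factors, exchange factors, GTPase-activating proteins and effectors. None of the 8, 34, 32 and 33 tested genes of these lists passed with edgeR over all genes; at an unadjusted p under 0.05 there were 0, 2, 1 and 1 genes on the higher side and 0 on the lower side of each. Fold changes were above 0 for 3 of 8, 20 of 34, 17 of 32 and 22 of 33 genes. This held for 41.5% of all tested genes and 48.5% of protein-coding genes. Median log2 fold changes of the lists were -0.06, 0.07, 0.12 and 0.17, beside -0.09 over all tested genes and -0.01 over protein-coding genes. All rPTH libraries lay above the controls for 1, 6, 6 and 8 genes and below them for 0, 1, 2 and 4 genes. Over all tested genes these shares were 8.35% above and 8.46% below (10.7% and 5.78% of protein-coding genes), and 1.98% and 5.89% had an unadjusted p under 0.05 on the higher and the lower side. Of 12292 tested protein-coding genes, 323 and 123 had such a p on the higher and the lower side.

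Chm, the escort protein that presents Rabs for prenylation, had 35.7, 33.2 and 31 CPM with rPTH and 6.64, 25.1 and 28.8 CPM in controls, so that control 1 was far below the rest (log2 fold change 0.72 ± 0.48, SE; edgeR adjusted p = 0.629). The Rab acceptor Rabac1 went the other way in that library, with 54.4, 71.6 and 61.9 CPM with rPTH and 174, 77 and 63.8 CPM in controls. Among exchange factors, Sbf2 had 26.7, 15.3 and 16.4 CPM with rPTH and 7.3, 13.5 and 12.2 CPM in controls (edgeR adjusted p = 0.619). Mon1a, part of the exchange factor of Rab7, had 12.3, 12.4 and 11.9 CPM with rPTH and 20.2, 15.3 and 13.3 CPM in controls (edgeR adjusted p = 0.627).

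Tbc1d2b, a TBC-domain protein, had the smallest p of the GTPase-activating list, with 62.9, 41.9 and 45.8 CPM with rPTH and 27, 35.7 and 34.7 CPM in controls (log2 fold change 0.63 ± 0.21, SE; edgeR adjusted p = 0.619), and Tbc1d17 had 24.7, 24.8 and 26 CPM with rPTH and 47, 28.5 and 25.2 CPM in controls. Lrrk2, the kinase that phosphorylates several Rabs, had 74.7, 45.6 and 48.3 CPM with rPTH and 17, 38.3 and 37.9 CPM in controls (edgeR adjusted p = 0.619). Sytl1, a Rab27 effector, had 4.48, 4.84 and 5.64 CPM with rPTH and 9.07, 6.04 and 6.06 CPM in controls (edgeR adjusted p = 0.628). Unc13d, which encodes the Rab27 effector Munc13-4 and was named after its values were seen, had 142, 157 and 173 CPM with rPTH and 174, 185 and 183 CPM in controls. Its rPTH libraries lay below the controls by a narrow margin, with a log2 fold change of -0.20 ± 0.15 (SE; edgeR adjusted p = 0.648).

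Some Rab rows share sequence or position with other genes. Rab11b-ps2, a pseudogene of Rab11b, had 659, 754 and 751 counts with rPTH and 447, 532 and 593 in controls, so reads of Rab11b may be divided with it. Exons of Rab43 and Rab4b lie for 75.4% and 65% under those of Gm45140 and Gm21983 on the same strand, which had at most 7 counts and 0 counts in a library. Rab43 itself had 19 counts in control 1 and 48 to 82 elsewhere, and Rab4b 30 to 58. Both counts are uncertain where the authors' counting could divide or drop shared reads.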

How the data were processed

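RNA of 6 libraries, 3 rPTH and 3 control, was measured by sequencing; Trizol extraction and TruSeq library construction are stated per the labels' protocols. The deposited counts are whole numbers per gene without normalization. Trimmomatic 0.36, STAR 2.5.2b, featureCounts, Subread 1.5.0p3, R 3.3.0 and DESeq2 1.12.4 are listed, without roles, per the submitters' processing notes, as are the builds GRCm38.p5 and mm9. Annotation and strand setting are not given in the sources used here. Per gene, the authors' deposited table gives p-values, a score (the Wald statistic), the log2 fold change, its error and the mean normalized signal.

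Genes were tested with edgeR 4.0.16 in R 4.3.3 (robust quasi-likelihood test, TMM factors, filterByExpr with a minimum count of 10, which left 16696 genes, Benjamini-Hochberg over all tested genes, threshold 0.05). The fit was first run on simulated counts. The changes set there were larger than any Rab fold change of the edgeR fit, so that run does not show how changes as small as these would fare. Alternatives used DESeq2 1.42.0 and limma 3.58.1. The length and GC trend was fitted across genes to each library's deviation from the mean of all libraries, without regard to group. Its removal therefore also takes out any difference between rPTH and control that follows length or GC content. Gene positions, exon lengths and transcript GC content come from GENCODE M21 on GRCm38, matched by symbol for 47240 of 49568 genes; promoters are RefSeq's. Values per library are given, by rule, for Rab genes with a known granule role, for the 4 of smallest p in each direction and for the 5 of highest level per length; from each Rab cycle list the gene of smallest p in each direction is named. Rab6b, Rab14, Rab15, Rab18, Rab21, Rab23, Rab24, Rab28, Rab30 and Rab34 fall outside this rule and were chosen after their values were seen. The members and lists were chosen with earlier results of these data known.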

Additional observations from a re-analysis of the deposited data

How the results depend on the processing

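The count of Rab genes past the threshold was 0 in all 14 alternatives, with a smallest adjusted p between 0.299 and 0.922. Over all genes the count was 0 except with DESeq2, which called 8 genes, none of them a Rab gene. The median log2 fold change of the Rab genes was -0.04, 0.12 without a low-count filter and 0.09 with DESeq2, where 59 Rab genes have a value, and -0.03 to 0.06 when single libraries were left out. With the replicate block 0 Rab genes and 0 genes in all passed, and 525 genes, against 1314, had an unadjusted p under 0.05. Deviations of same-numbered libraries from their group means had correlations of -0.131, -0.323 and 0.142. Deviations from a mean of 3 libraries are tied to each other, so these values cannot decide whether same-numbered libraries shared a batch. Of 49 tested Rab genes 24 kept one sign in every alternative, 12 positive and 12 negative. Among the 24 tested genes of the naming rule 10 changed sign somewhere, each of them between -0.25 and 0.15 in the edgeR fit as reported. With DESeq2 size factors the log2 fold changes were 0.01 (Rab27a), 0.03 (Rab7) and 0.04 (Rab2a). Without the low-count filter they were 0.07 (Rab27a), 0.1 (Rab7), 0.02 (Rab11a) and 0.12 (Rab2a), and with DESeq2 0.03 (Rab27a), 0.05 (Rab7) and 0.06 (Rab2a). With limma-voom they were -0.01 (Rab44) and 0.01 (Rab2a), and with the replicate block 0.0 (Rab44) and 0.01 (Rab2a). With the length and GC trend removed they were -0.36 (Rab27b), 0.03 (Rab3a), 0.05 (Rab7) and -0.08 (Rab1a). When single libraries were left out the ranges were -0.14 to 0.08 (Rab27a), -0.03 to 0.31 (Rab27b), -0.26 to 0.2 (Rab44), -0.12 to 0.23 (Rab5b), -0.29 to 0.01 (Rab5c), -0.09 to 0.06 (Rab7), -0.27 to 0.1 (Rab11a), -0.16 to 0.22 (Rab2a) and -0.01 to 0.11 (Rab1a). The cause was not tested. Depth limits Rab genes with few counts, such as Rab39b and Rab7b, and the 10 that could not be tested.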
